A study of Mus musculus with 8 samples.

Results

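A set of 10 receptor genes through which T cells sense cytokines were followed across 4 genotypes of naive CD4+ T cells. The 10 genes are Il7r, Il2rb, Il2rg, Il15ra, Il21r, Il6ra, Il6st, Il10ra, Ifngr1 and Ifngr2, and they were taken by symbol. All 10 were found among the 22410 genes of the RNA files and among the 18603 promoter windows of the H3K27me3 files. The Il7r to Il21r genes encode chains that use or pair with the common gamma chain, Il6ra and Il6st encode the IL-6 receptor, Il10ra encodes the ligand-binding chain for IL-10, and Ifngr1 and Ifngr2 encode the interferon-gamma receptor. The cells were lymph node CD4 T cells of strain 129SV/B6. The Ezh1 KO is Ezh1 -/-. The Ezh2 KO is labelled Ezh2 -/- and is described in the design as Ezh2 fl/fl carrying CD4-cre, a cre recombinase under Cd4 regulatory sequence that acts in developing T cells. The double KO combines Ezh1 -/- with Ezh2 fl/fl and CD4-cre, and WT carries neither. Whether animals were pooled, and their age and sex, is not given in the sources used here. Each genotype has 1 ChIP-seq library and 1 RNA-seq library, so no value below has a replicate or an SD, nothing was tested, and words such as "higher" compare 2 libraries.

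Cytokine receptors of this kind have no enzyme activity of their own. Ligand binding brings receptor chains together, JAK kinases bound to their tails phosphorylate each other, and STAT factors recruited there move to the nucleus. In naive T cells, IL-7 acting through Il7r and Il2rg sustains survival, while IL-6, IL-21, IL-2, IL-15, IL-10 and interferon-gamma steer later responses. H3K27me3 is a histone mark of silent genes, and Ezh1 and Ezh2 are the alternative enzymes that write it.

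The ChIP libraries held 78.2 to 88.2 M reads and the RNA libraries 36.1 to 94.1 M reads, as implied by the height of 1 read in each file. Ezh1 RNA was 0.196 in Ezh1 KO cells, 1.12 in Ezh2 KO cells, 0.194 in double KO cells and 1.05 in WT cells. Ezh2 RNA was 0.913 in Ezh1 KO cells, 1.08 in Ezh2 KO cells, 1.17 in double KO cells and 0.925 in WT cells. These are means over all exons of the gene, which do not check a deletion of some of them, so the loss of Ezh2 rests on the labels. All 9 T cell markers were at 1 or more in every RNA library, and their summed RNA was 198 in Ezh1 KO cells, 204 in Ezh2 KO cells, 201 in double KO cells and 234 in WT cells. The 12 B cell markers summed to 8.12, 12.7 and 19.4 in the Ezh1 KO, Ezh2 KO and double KO and to 6.03 in WT, with none at 0. The 12 CD8 T and NK cell markers summed to 5.00, 9.91 and 8.15 in those mutants and to 5.37 in WT, again with none at 0. Of 11 myeloid markers, 9 had a value, and they summed to 1.15, 1.17 and 1.88 in the mutants and to 0.9003 in WT, where 1 of them was at 0. Il2rb, Il10ra, Il6ra and Il21r, among others, are also used by B cells, NK cells or myeloid cells, and the part of such cells in the values below was not tested. In bulk samples such as these, fewer cells of a type and less RNA per cell cannot be told apart.

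Promoter sequences of RefSeq (GRCm38.p6), from 250 bases before to 50 after the gene start, were matched for 8 of the 10 genes, with 9 promoters because Il15ra has 2 starts. CpG dinucleotides are a property of promoters that Polycomb complexes are known to favour, so 4 promoters that span the range of CpG content are shown 5′ to 3′ on the strand of the gene, with every CG in capitals. Il6ra lies at chr3:89913147-89913446 on the minus strand, Il6st at chr13:112463820-112464119 on the plus strand, Il7r at chr15:9529827-9530126 on the minus strand and Il2rg at chrX:101268206-101268505 on the minus strand.
Il6ra: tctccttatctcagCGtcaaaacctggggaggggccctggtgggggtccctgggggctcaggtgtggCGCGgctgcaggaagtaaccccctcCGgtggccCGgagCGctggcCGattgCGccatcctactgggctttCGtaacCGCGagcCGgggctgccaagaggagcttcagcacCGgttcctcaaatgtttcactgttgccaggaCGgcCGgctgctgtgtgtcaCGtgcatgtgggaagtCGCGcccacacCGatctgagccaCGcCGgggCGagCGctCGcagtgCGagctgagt
Il6st: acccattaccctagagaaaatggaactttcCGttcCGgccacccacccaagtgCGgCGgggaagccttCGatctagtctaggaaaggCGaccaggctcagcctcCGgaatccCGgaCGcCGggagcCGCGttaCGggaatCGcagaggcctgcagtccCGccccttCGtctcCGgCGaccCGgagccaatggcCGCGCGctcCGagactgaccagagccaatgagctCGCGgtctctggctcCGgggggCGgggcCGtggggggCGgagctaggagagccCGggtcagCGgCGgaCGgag
Il7r: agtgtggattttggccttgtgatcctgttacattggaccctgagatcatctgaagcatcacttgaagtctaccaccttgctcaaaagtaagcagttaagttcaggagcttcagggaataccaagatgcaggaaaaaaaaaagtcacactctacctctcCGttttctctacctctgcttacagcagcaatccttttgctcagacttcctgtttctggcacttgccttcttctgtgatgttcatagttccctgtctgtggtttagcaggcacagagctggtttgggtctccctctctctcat
Il2rg: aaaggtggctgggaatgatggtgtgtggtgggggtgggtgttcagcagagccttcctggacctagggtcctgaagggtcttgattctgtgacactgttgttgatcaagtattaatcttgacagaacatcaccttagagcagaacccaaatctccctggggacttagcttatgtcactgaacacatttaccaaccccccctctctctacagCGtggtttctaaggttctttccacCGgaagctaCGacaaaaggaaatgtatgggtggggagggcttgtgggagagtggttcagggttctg
The Il6ra stretch held 25 CG and the Il6st stretch 33, against 1 in Il7r and 3 in Il2rg. The other promoters held 6 and 15 (Il15ra), 7 (Il21r), 14 (Ifngr1) and 31 (Ifngr2), and the median over 32851 mouse promoters in the same table was 7. Searching both strands, the STAT motif TTCNNNGAA was found in the Il7r promoter alone among the 9, 142 bases before the start, and it occurs in 8.30% of all these promoters. The Foxo motif GTAAACA was found in the Il21r promoter alone, 38 bases before the start, against 3.65% of all promoters. The ETS motif CGGAAG was found in the promoter of Il2rg and at the first start of Il15ra, against 16.9% of all promoters. No promoter of the 9 held 2 of these motifs. These are matches of letters, not measured binding sites.

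RNA of the 10 genes kept nearly the same order in every genotype. RNA is given as the mean over a gene's exons of the highest coverage per M reads, a height that does not grow with gene length. Il7r, the IL-7 receptor alpha chain, was the highest at 13.3 in Ezh1 KO cells, 11.2 in Ezh2 KO cells, 13.6 in double KO cells and 14.7 in WT cells. Il2rg, the common gamma chain, ranked 2 in all 4 libraries and Il6st, the signalling chain gp130, ranked 3. Ifngr1, the ligand-binding chain for interferon-gamma, ranked 4 and Il21r, the IL-21 receptor, ranked 5 in all 4. Il6ra, Ifngr2 and Il2rb lay close together between 1.36 and 2.22 and were the genes that changed places: Il6ra ranked 8 of 10 in both genotypes with Ezh2 deleted but 6 of 10 in Ezh1 KO and WT cells. Il10ra ranked 9 and Il15ra ranked 10 in every library. All of these levels except Il15ra and Il10ra stood above the 80th percentile of all genes in every library, and Il15ra lay between the 65.0 and 69.8 percentiles.

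**Figure D1:**
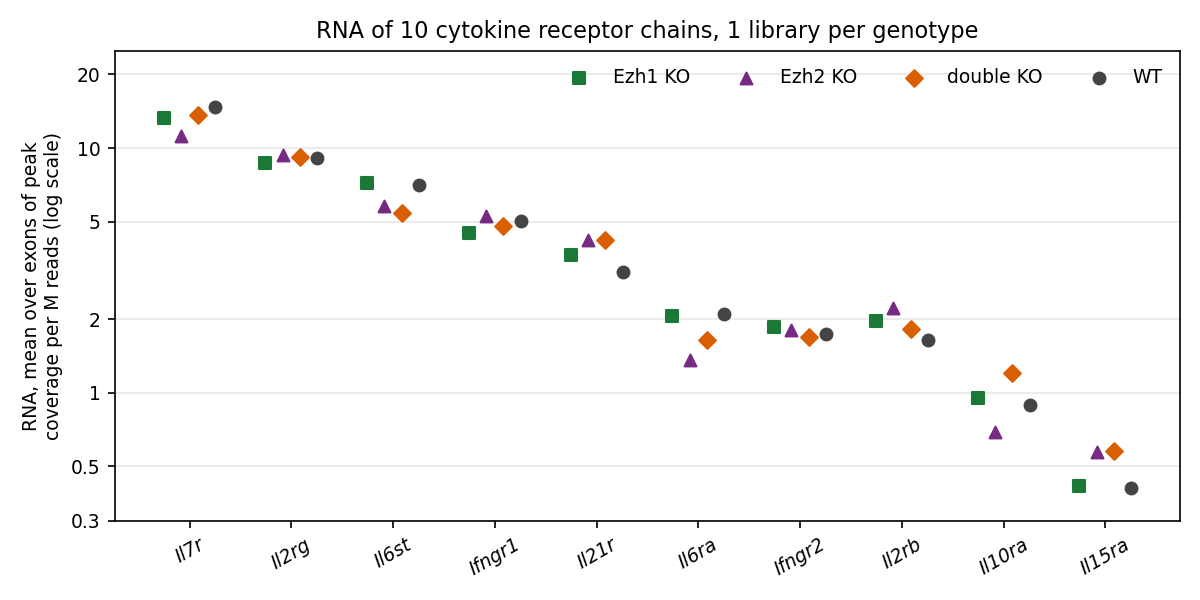
RNA of the 10 receptor genes (peak coverage per M reads, averaged over exons, log axis), with 1 point per library in the order Ezh1 KO, Ezh2 KO, double KO, WT and genes ordered by the WT level. Il7r stays on top and Il15ra at the bottom in all 4 libraries, while Il6ra and Il6st have their lower points in the Ezh2 KO and the double KO.

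H3K27me3 at the 9 promoters measured stayed below the level of marked promoters in every genotype. It is given as the summed coverage per M reads in 25 bp bins of a 6 kb window around the start, and windows of the most expressed genes had a median of 9.79 in Ezh1 KO cells, 11.1 in Ezh2 KO cells, 10.4 in double KO cells and 10.1 in WT cells. None of the 9 reached 40.6, which is 4 times that WT median and the level above which a window is called marked. Of all 18603 windows, 2236 were marked in WT, so most windows stayed below that level. The 2236 marked windows had medians of 64.2, 47.5 and 56.9 in the Ezh1 KO, Ezh2 KO and double KO and of 51.5 in WT. Il15ra, the chain that presents IL-15, had the highest value of the 9 measured windows in the Ezh1 KO, the double KO and WT, at 31.1, 29.3 and 31.1. In the Ezh2 KO it was 24.0, just under the 24.4 of Il7r. Il15ra lay at the 77.6 to 81.8 percentiles of all windows and thus above most of them. Il2rg had the lowest value in every library, at 3.79 in Ezh1 KO cells, 6.27 in Ezh2 KO cells, 5.25 in double KO cells and 5.44 in WT cells. The gene with the least RNA of the 10 had the most mark in 3 of 4 libraries, and the gene with the least mark ranked 2 in RNA. Il7r went the other way, since it ranked 1 in RNA in every library. Its mark was 16.6 in WT, next after Il15ra, and the highest of the 9 in the Ezh2 KO.

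Ifngr2, the signalling chain of the interferon-gamma receptor, was listed at 0 in all 4 H3K27me3 libraries. Its window on chromosome 16 lies past 88777395 (mm9), the end of the last window with signal there, and all 85 windows beyond that point were at 0 in every library. The 0 therefore holds no measurement of the Ifngr2 promoter, which is left out of every H3K27me3 count, and 9 windows remain. In the mm9 annotation, 8 of the 10 windows were centred within 61 bp of the annotated gene start and covered upstream sequence, the first exon and part of the first intron. The Il6st window (chr13:113251317-113257317) was centred at -10899 bp from the annotated gene start but within 39 bp of the RefSeq start. The Il2rg window (chrX:98461362-98467362) was centred at -768 bp from the annotated start and overlaps the gene Gm20489. The exon list deposited for Il2rg also reaches beyond the annotated gene on both sides, and its RNA in WT was 9.09 as the mean over exons but 4.91 as the median, so its values are uncertain.

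**Figure D2:**
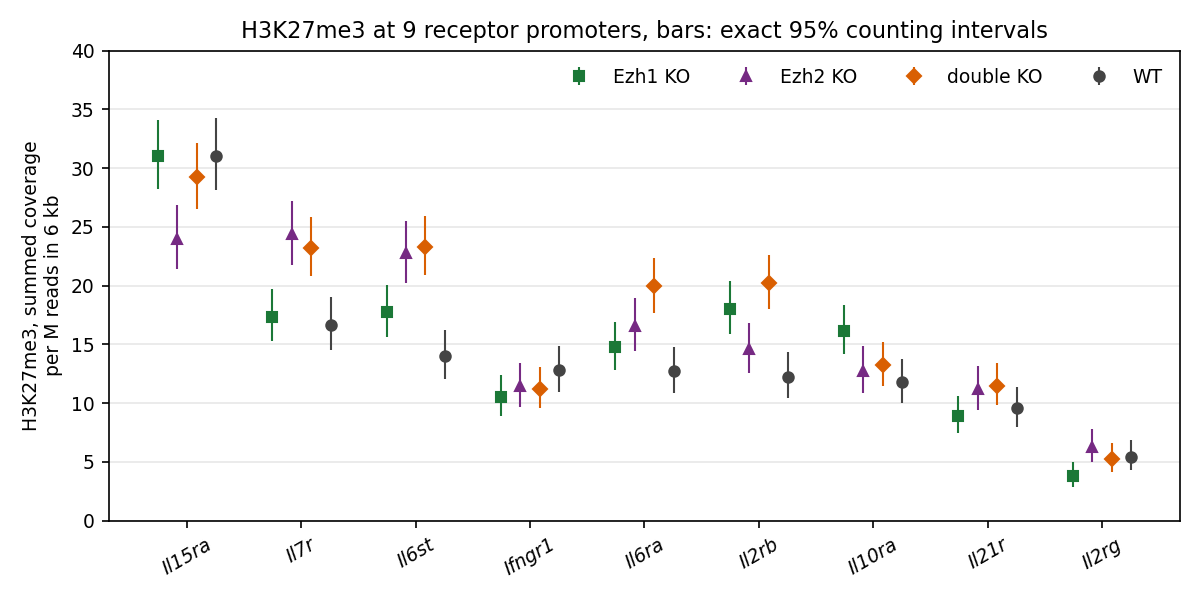
H3K27me3 in 9 promoter windows (summed coverage per M reads in 6 kb), with 1 point per library in the order Ezh1 KO, Ezh2 KO, double KO, WT, bars giving exact 95% counting intervals and genes ordered by the WT value. Il7r and Il6st are higher in the Ezh2 KO and the double KO than in WT, beyond the counting bars, and all points lie under 35.

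Differences between genotypes were modest in both assays. A window or gene was compared when it reached 1 in the higher library, and was counted at 1.5-fold, on the log2 scale after adding 1 to H3K27me3 and 0.1 to RNA. In the Ezh1 KO over WT, 0 of 9 windows were counted, where 1.93% of all 17972 windows were higher and 0.256% lower. In the Ezh2 KO over WT, Il6st alone was higher and 0 were lower, against 0.606% and 0.795% of all windows. For the double KO over WT, Il2rb, Il6ra and Il6st were higher and 0 were lower, against 1.14% and 1.48%. All comparisons with WT share the WT library of their assay. The double KO over the Ezh1 KO had 0 of 9 counted, against 0.373% higher and 2.18% lower among all windows, and the double KO over the Ezh2 KO 0 of 9, against 0.534% and 0.289%.

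The median log2 ratio of the 9 windows was 0.06 in the Ezh1 KO over WT, against 0.09 for all windows and -0.03 for the 4728 windows of genes at 1 or more in WT RNA. It was 0.21 in the Ezh2 KO over WT, against -0.01 for all windows and 0.11 for the expressed ones. The double KO over WT gave 0.24, against 0.05 for all windows and for the expressed ones. For the double KO over the Ezh1 KO the median was 0.33, against -0.05 for all windows and 0.08 for the expressed ones. The double KO over the Ezh2 KO gave 0.03, against 0.05 for all windows and -0.06 for the expressed ones. The median of the 9 windows lay above that of the expressed genes in all 5 comparisons, but these share libraries and are not independent. Against all windows it was lower in the Ezh1 KO over WT and in the double KO over the Ezh2 KO. Il15ra and Il10ra, under 1 in WT RNA, are among the 9 but not among the expressed windows.

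RNA differences at 1.5-fold were nearly absent. Il15ra never reached the minimum of 1, and Il10ra reached it only through its double KO value, which leaves 8 genes in the comparisons of a single KO with WT and 9 in the others. In the Ezh1 KO over WT, 0 of 8 were counted, where 0.596% of 5201 genes were higher and 2.73% lower. The Ezh2 KO over WT had 0 of 8, against 3.39% higher and 2.81% lower. In the double KO over WT 0 of 9 were counted, against 2.65% higher and 2.33% lower. The double KO over the Ezh1 KO also had 0 of 9, against 2.59% and 0.589%. In the double KO over the Ezh2 KO, Il10ra alone was higher and 0 were lower, against 1.36% and 1.72%.

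Il6ra, the chain that binds IL-6, had more H3K27me3 and less RNA where Ezh2 was deleted. Its H3K27me3 was 14.8 in Ezh1 KO cells, 16.6 in Ezh2 KO cells, 19.9 in double KO cells and 12.7 in WT cells. Its RNA was 2.07 in Ezh1 KO cells, 1.36 in Ezh2 KO cells, 1.64 in double KO cells and 2.09 in WT cells. For RNA, both libraries with Ezh2 deleted were below both libraries without that deletion, and for the mark both were above. The H3K27me3 log2 ratio was 0.36 in the Ezh2 KO over WT, with a counting interval of 0.08 to 0.68, and 0.41 in the double KO over the Ezh1 KO, with an interval of 0.17 to 0.69. These pairs share no library. Of all windows, 29.8% had a mark ratio over 0 in both pairs, and 24.8% of genes had an RNA ratio under 0 in both. These conditions are looser than a full separation of the libraries. Among all windows the Il6ra mark ratios stood at the 94.3 and 97.1 percentiles. Among windows of genes at 1 or more in WT RNA they stood at the 88.2 and 93.7 percentiles. The RNA log2 ratio was -0.58 and -0.32 in the same pairs, at the 2.90 and 2.61 percentiles of all genes. As a direct ratio of the deposited values the Ezh2 KO had 0.653 of the WT RNA, and only the added 0.1 kept it short of 1.5-fold. Ezh1 deletion alone left Il6ra RNA at a log2 ratio of -0.01 over WT.

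Il6st, the gp130 chain shared by IL-6 and related cytokines, showed the same arrangement. Its H3K27me3 was 17.8 in Ezh1 KO cells, 22.7 in Ezh2 KO cells, 23.3 in double KO cells and 14.1 in WT cells. Its RNA was 7.19 in Ezh1 KO cells, 5.78 in Ezh2 KO cells, 5.42 in double KO cells and 7.05 in WT cells. In both assays the libraries with and without Ezh2 deletion did not overlap. By the looser condition, 29.8% of all windows were over 0 and 24.8% of genes under 0 in RNA in both Ezh2 pairs. The H3K27me3 log2 ratio was 0.66 in the Ezh2 KO over WT (counting interval 0.43 to 0.97), the 99.8 percentile of all windows. In the double KO over the Ezh1 KO it was 0.37 (interval 0.15 to 0.63), the 96.0 percentile, and the corresponding RNA ratio of -0.40 stood at the 1.51 percentile. Among windows of genes at 1 or more in WT RNA, these mark ratios stood at the 99.5 and 91.3 percentiles. In the Ezh2 KO over WT the RNA ratio was -0.28, the 15.5 percentile. The mark was also higher in the Ezh1 KO than in WT, by 0.32 (interval 0.06 to 0.62), with RNA at a ratio of 0.03, but this difference was 0.02 with marked windows set equal between libraries.

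Across the 7 receptor genes compared in both assays and both pairs, Il6ra and Il6st were the only ones with mark over and RNA under 0 in each pair, or 28.6%. Among 4620 genes compared in the same way the share was 13.7%. The highest bin of the window gave Il6st values of 0.205 in Ezh1 KO cells, 0.318 in Ezh2 KO cells, 0.279 in double KO cells and 0.156 in WT cells. For Il6ra it gave 0.221, 0.275 and 0.247 in the Ezh1 KO, Ezh2 KO and double KO and 0.145 in WT. By this measure, too, WT was the lowest of the 4 at both promoters. The 3 genes whose H3K27me3 pattern over the 4 libraries was closest to that of Il6st, the window with the widest log2 range, were Stk4, Ubash3a and Sp2, at distances of 0.0645, 0.0734 and 0.0812 on the log2 scale among 17640 windows. Stk4, for example, had 7.57 in Ezh1 KO cells, 9.80 in Ezh2 KO cells, 9.76 in double KO cells and 6.10 in WT cells.

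**Figure D3:**
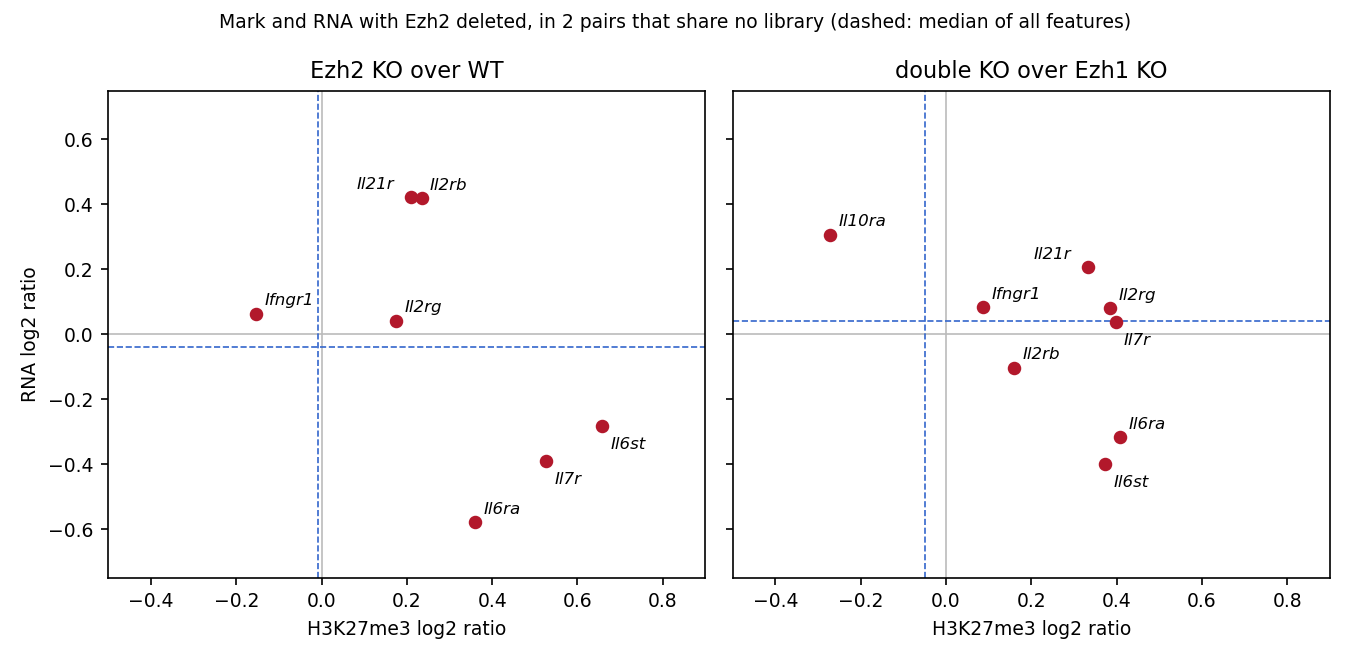
Log2 ratios of H3K27me3 (horizontal axis) and RNA (vertical axis) for the Ezh2 KO over WT and for the double KO over the Ezh1 KO, with 1 point per receptor gene compared in both assays and dashed lines at the median of all windows or genes. Il6ra and Il6st have RNA ratios of -0.28 or lower and mark ratios over 0 in both panels, while Il7r has an RNA ratio of -0.39 in the Ezh2 KO over WT and of 0.04, next to the median line, in the double KO over the Ezh1 KO.

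Il7r had more mark with Ezh2 deleted, and its RNA was lowest in the Ezh2 KO. Its H3K27me3 was 17.4 in Ezh1 KO cells, 24.4 in Ezh2 KO cells, 23.2 in double KO cells and 16.6 in WT cells, so the libraries with and without the Ezh2 deletion did not overlap. By the looser condition, 29.8% of all windows were over 0 in both Ezh2 pairs. The log2 ratio was 0.53 in the Ezh2 KO over WT (counting interval 0.30 to 0.80) and 0.40 in the double KO over the Ezh1 KO (interval 0.18 to 0.66), the 98.9 and 96.8 percentiles of all windows. Among windows of genes at 1 or more in WT RNA these were the 97.3 and 93.0 percentiles. RNA gave log2 ratios of -0.39 and 0.04 in the same pairs, so the direction differed. Its RNA in the double KO was 0.28 above the Ezh2 KO on the log2 scale.

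Il21r had somewhat more RNA and more mark with Ezh2 deleted. RNA was 3.65 in Ezh1 KO cells, 4.21 in Ezh2 KO cells, 4.22 in double KO cells and 3.12 in WT cells, and WT was the lowest. H3K27me3 was 8.91 in Ezh1 KO cells, 11.2 in Ezh2 KO cells, 11.5 in double KO cells and 9.57 in WT cells. RNA log2 ratios were 0.42 in the Ezh2 KO over WT and 0.21 in the double KO over the Ezh1 KO, and those of the mark 0.21 and 0.33, of which only the second had a counting interval that leaves out 0 (0.02 to 0.71). Il2rg was steady in RNA, at 8.67 in Ezh1 KO cells, 9.36 in Ezh2 KO cells, 9.17 in double KO cells and 9.09 in WT cells. None of its H3K27me3 counting intervals left out 0, and its window held only 55 to 81 read equivalents. Il21r and Il2rg were the receptor genes with both mark and RNA over 0 in each Ezh2 pair, again 28.6% of 7 against 13.3% of 4620 genes.

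Il2rb, the signalling chain of the IL-2 and IL-15 receptors, had more mark in each mutant than in WT. Its H3K27me3 was 18.0 in Ezh1 KO cells, 14.6 in Ezh2 KO cells, 20.2 in double KO cells and 12.3 in WT cells. By this summed measure the 2 libraries without Ezh1 were the higher ones. By a looser condition, 45.4% of all windows were over 0 in both the Ezh1 KO over WT and the double KO over the Ezh2 KO. So were 4 of the 9 receptor windows, so this direction was common. By the highest bin the order was different, at 0.162 in Ezh1 KO cells, 0.169 in Ezh2 KO cells, 0.198 in double KO cells and 0.111 in WT cells. With marked windows set equal between libraries the log2 ratio over WT was 0.22 (Ezh1 KO) and 0.34 (Ezh2 KO), so the order by Ezh1 rests on the summed measure and its scaling. The log2 ratio was 0.52 in the Ezh1 KO over WT (counting interval 0.27 to 0.85) and 0.44 in the double KO over the Ezh2 KO (interval 0.20 to 0.74), the 96.2 and 96.8 percentiles, in pairs that share no library. In the double KO over WT it was 0.68. In the Ezh2 KO over WT it was 0.23, where the counting interval of -0.06 to 0.56 includes 0. Il2rb RNA was 1.96 in Ezh1 KO cells, 2.22 in Ezh2 KO cells, 1.82 in double KO cells and 1.64 in WT cells, lowest in WT and with no order by the mark. The summed CD8 T and NK cell markers were highest in the Ezh2 KO as well, and their part in the Il2rb RNA was not tested. Gzma rose most in that sum, at 2.90 in the Ezh2 KO against 0.226 in WT. Klrb1c (1.03 against 0.110) and Ccl5 (2.08 against 0.918) were also more than 1.5-fold higher there. Of the 5 markers compared, 3 were higher and 0 lower at 1.5-fold, against 3.39% and 2.81% of all genes. Prf1 (1.075 against 1.427), Klrd1 (0.398 against 0.854) and Cd8b1 (0.975 against 1.016) were lower in the Ezh2 KO than in WT.

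Il15ra was the only 1 of 9 receptor windows with less mark in both Ezh2 pairs, where 39.3% of all 17965 windows compared had less in both. The log2 ratio was -0.36 in the Ezh2 KO over WT (counting interval -0.59 to -0.16) and -0.08 in the double KO over the Ezh1 KO, where the interval of -0.28 to 0.11 includes 0. Its RNA was 0.416 in Ezh1 KO cells, 0.570 in Ezh2 KO cells, 0.576 in double KO cells and 0.409 in WT cells. Both libraries with Ezh2 deleted were higher, all under the minimum of 1 and resting on a coverage of 15 to 54 reads at the exon peaks. By a looser condition, 28.6% of the 4995 genes compared had an RNA ratio over 0 in both Ezh2 pairs. Il15ra is not among those 4995. Il15ra thus had its lowest mark and nearly its highest RNA in the Ezh2 KO, while the double KO had similar RNA with a mark of 29.3.

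Il10ra had the widest RNA range of the 10 genes. RNA was 0.9502 in Ezh1 KO cells, 0.693 in Ezh2 KO cells, 1.20 in double KO cells and 0.894 in WT cells. The double KO over the Ezh2 KO gave a log2 ratio of 0.71, the 99.2 percentile of all genes compared, and the double KO over WT 0.39. Il10ra was compared here only because its double KO value, the highest of the 4, reached the minimum of 1. The single KO comparisons with WT had no such value, so a difference there could not be counted. The Ezh2 KO value also rested on only 28 reads at the exon peaks. The double KO also had the highest summed B cell markers of the 4 libraries, 19.4, and their part in this was not tested. H3K27me3 at Il10ra was 16.2 in Ezh1 KO cells, 12.7 in Ezh2 KO cells, 13.2 in double KO cells and 11.8 in WT cells, and only the Ezh1 KO over WT, at 0.43 (counting interval 0.16 to 0.76), and the double KO over the Ezh1 KO, at -0.27 (interval -0.57 to -0.01), left out 0. The 3 genes with the RNA pattern closest to Il10ra among 4327 were Otud1, Zfp764 and Psme2b-ps, at distances of 0.113, 0.135 and 0.149, and the last is a pseudogene with near-identical copies whose values are uncertain.

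The interferon-gamma receptor genes and Il2rg varied least as means over exons. Ifngr1 RNA was 4.52 in Ezh1 KO cells, 5.26 in Ezh2 KO cells, 4.79 in double KO cells and 5.03 in WT cells. Ifngr2 RNA was 1.85 in Ezh1 KO cells, 1.81 in Ezh2 KO cells, 1.68 in double KO cells and 1.74 in WT cells. The highest values of Ifngr1 and Ifngr2 were 1.16 and 1.10 times their lowest, but 1.30 and 1.32 times by the median over exons, a wider range than the 1.19 of Il7r. H3K27me3 at Ifngr1 was 10.5 in Ezh1 KO cells, 11.4 in Ezh2 KO cells, 11.2 in double KO cells and 12.8 in WT cells, the only promoter besides Il15ra with its highest value in WT, and no counting interval left out 0.

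The 9 promoters ranged from the 5.02 to the 90.5 percentile of all windows in CpG content. In the central 1 kb of the window, Il6st had 98 CG and Il6ra 81, while Il7r had 6 and Il2rb 16, against a median of 49 over 18075 windows with signal. Over all windows, CpG in the central 1 kb and the log2 ratio of the Ezh2 KO over WT had a Spearman correlation of 0.03, given as a description of windows that share the same libraries. It was 0.03 for the double KO over WT and -0.01 for the Ezh1 KO over WT. Over windows of genes at 1 or more in WT RNA the correlations were -0.07 (Ezh1 KO), -0.07 (Ezh2 KO) and -0.08 (double KO), all weak.

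**Figure D4:**
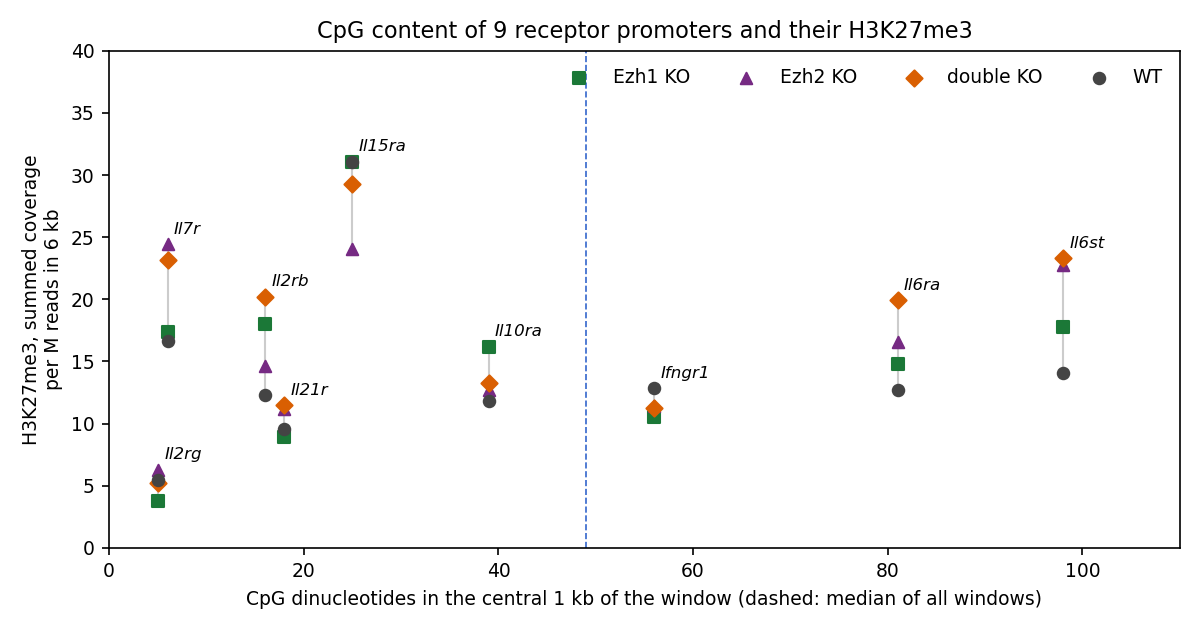
CpG dinucleotides in the central 1 kb of 9 promoter windows (horizontal axis) against H3K27me3 (summed coverage per M reads in 6 kb), with 4 points per gene, 1 per library, joined by a grey line, and the dashed line at the median CpG count of all windows, 49. Il6ra and Il6st lie on the CpG-rich side, Il7r, Il2rb and Il21r on the CpG-poor side.

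Few of the other genes of these pathways passed 1.5-fold, some of them by more than any receptor gene. Of 40 other cytokine receptor chains, 39 were present, 36 windows had signal and 10 genes reached 1 in RNA. In RNA, Il18r1, an IL-18 receptor chain, was the only one past 1.5-fold in any mutant over WT, at 1.77 in Ezh1 KO cells, 1.71 in Ezh2 KO cells, 1.25 in double KO cells and 1.95 in WT cells (log2 ratio in the double KO -0.60). In H3K27me3, Il22ra1 was higher in the Ezh1 KO, and Il17ra was higher and Il5ra lower in the double KO, at log2 ratios of 0.61, 0.60 and -0.69. The median log2 H3K27me3 ratio of those 36, most of them not expressed here, over WT was 0.12 (Ezh1 KO), -0.05 (Ezh2 KO) and 0.03 (double KO).

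Among 11 JAK kinases and STAT factors, 0 promoters passed 1.5-fold in any mutant over WT. All 11 had a ratio over 0 in the Ezh2 KO over WT, with a median of 0.28, where 69.7% of expressed windows and 48.5% of all windows were over 0. In RNA, Stat2, which transmits interferon signals, was higher in Ezh2 KO and double KO cells, at log2 ratios over WT of 0.67 and 0.66. Stat2 RNA was 1.34 in Ezh1 KO cells, 1.77 in Ezh2 KO cells, 1.76 in double KO cells and 1.08 in WT cells, so WT was the lowest. Stat3, through which IL-6 and IL-10 act, had RNA of 3.79 in Ezh1 KO cells, 4.71 in Ezh2 KO cells, 4.36 in double KO cells and 3.86 in WT cells. Its highest value was in the Ezh2 KO, where RNA of Il6ra and Il6st was below WT.

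Of 14 genes induced downstream of STAT factors, 7 reached 1 in RNA. Gbp2, an interferon-induced GTPase, was the 1 of 7 higher in the Ezh2 KO, and its RNA was 7.21 in Ezh1 KO cells, 11.4 in Ezh2 KO cells, 8.04 in double KO cells and 5.84 in WT cells. Socs3, the inhibitor that binds gp130, was the 1 of 7 higher in the double KO. Socs3 RNA was 2.90 in Ezh1 KO cells, 3.82 in Ezh2 KO cells, 4.15 in double KO cells and 2.58 in WT cells. Its promoter had H3K27me3 of 18.4 in Ezh1 KO cells, 11.9 in Ezh2 KO cells, 19.8 in double KO cells and 8.77 in WT cells, a log2 ratio over WT of 0.99 (Ezh1 KO) and 1.09 (double KO). Gbp2 also had more H3K27me3 in the Ezh2 KO, at a log2 ratio of 0.60.

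Of 17 cytokine genes whose products bind these receptors, 16 stayed under 1 in RNA in every library. Cntf, a neurotrophic cytokine that signals through gp130, was the other, and 0 passed 1.5-fold. H3K27me3 at Il15 was 25.3 in Ezh1 KO cells, 16.3 in Ezh2 KO cells, 16.9 in double KO cells and 25.9 in WT cells, at log2 ratios over WT of -0.64 (Ezh2 KO) and -0.59 (double KO). At Il9 it was 55.9 in Ezh1 KO cells, 37.4 in Ezh2 KO cells, 27.9 in double KO cells and 54.5 in WT cells, at -0.94 in the double KO over WT. Il15 and its receptor chain Il15ra therefore both had less mark in the Ezh2 KO than in WT, as did 51.5% of all windows compared. Of the 17 cytokine windows, 5 had a ratio over 0 there, with a median of -0.135. At the Cntf promoter the mark was higher in the Ezh2 KO, with a log2 ratio of 0.59.

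Naive T cell genes give a further setting for these receptors. The 8 naive markers summed to 102 in Ezh1 KO cells, 88.0 in Ezh2 KO cells, 87.8 in double KO cells and 114 in WT cells, and the 8 memory or activated T cell markers to 14.3, 12.3 and 17.6 in those mutants and to 19.2 in WT. Neither list had a member at 0. The naive sum was lower in the libraries with Ezh2 deleted, as were Il6ra and Il6st RNA, and its part in their values was not tested. In the Ezh2 KO over WT, 1 of 8 naive markers had an RNA ratio over 0, with a median of -0.325, against 43.6% of all genes. In the double KO over the Ezh1 KO it was 4 of 8, with a median of 0.04, against 60.3% of all genes. Dapl1 weighed most on the sum in that pair, at 4.06 in double KO cells and 16.1 in Ezh1 KO cells. Most T cell promoters had more mark with Ezh2 deleted: 2 of 9 markers, Cd3d and Cd4, passed 1.5-fold in the Ezh2 KO over WT, where 0.606% of all windows did, and 5 of 9, Cd3d, Cd3e, Cd3g, Cd4 and Lat, in the double KO over WT, where 1.14% did. Cd28 went the other way, with log2 ratios over WT of -0.28 (Ezh2 KO) and -0.25 (double KO). The Cd4 window had 24.1 in Ezh1 KO cells, 194 in Ezh2 KO cells, 212 in double KO cells and 19.9 in WT cells. CD4-cre is built on Cd4 regulatory sequence, and reads of the transgene and of the gene itself cannot be told apart in these values.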

How the data were processed

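H3K27me3 ChIP-seq and RNA-seq of 4 genotypes were used, 1 library each. Per the labels' protocols, reads were aligned to mm9 with Bowtie 0.12.7 and kept at a single location with up to 2 errors; the submitters' processing notes name Cufflinks, Cuffdiff and bcl2fastq with no role. The authors deposited coverage signal. Per the file headers it is the area and the highest bin around each start, and the exon peaks as mean and median per gene. From the values these are per M reads, with ChIP reads extended to 151 bp. Another number, that of exons, is given per the file headers. Input subtraction is not given in the sources used here, and no spike-in was used.

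Since the files hold signal and not counts, log2 ratios were formed (pseudocount 1 for H3K27me3, 0.1 for RNA; minimum 1 in the higher library; 1.5-fold), with no test. Exact Clopper-Pearson counting intervals of 95% on ChIP read equivalents, without the pseudocount, cover counting error alone: without molecular identifiers, PCR copies of a molecule count as separate reads. RNA got none, because peak coverage is not a count. The ratio and count steps were tested on simulated data. The members and lists were chosen with earlier results of these data known. Named genes were all 10 members, at most 6 genes per list past 1.5-fold in a mutant over WT, and the 3 genes closest in pattern to the widest-ranging member of each assay. Python 3.11.15, pandas 2.3.3 and scipy 1.17.1 were used. Alternatives were other thresholds, scalings, measures, pseudocounts and minimums. A further gene of the JAK and STAT list is not reported here.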

Additional observations from a re-analysis of the deposited data

Results flagged for a closer look

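In 5 cases the 2 pairs of libraries that measure the same deletion gave opposite directions for a receptor gene, each by more than 0.1 on the log2 scale. With 1 library per genotype none of these differences was tested. For the Ezh2 deletion, Il10ra H3K27me3 had a log2 ratio of 0.10 in the Ezh2 KO over WT and of -0.27 in the double KO over the Ezh1 KO. The first of these has a counting interval of -0.21 to 0.44, which includes 0. Il10ra RNA had -0.33 and 0.31 in the same pairs, but the first compares 0.693 in Ezh2 KO cells with 0.894 in WT cells, both under the minimum of 1, and is given for completeness. Il2rb RNA had 0.42 in the Ezh2 KO over WT and -0.10 in the double KO over the Ezh1 KO. For the Ezh1 deletion, Il7r RNA had -0.15 in the Ezh1 KO over WT and 0.28 in the double KO over the Ezh2 KO. Il2rb RNA had 0.25 and -0.28 in those pairs.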

How the results depend on the processing

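No paired analysis was possible because each genotype has 1 library per assay. Across the other scalings and the highest bin, the H3K27me3 log2 ratio in the Ezh2 KO over WT ranged over 0.23 to 0.91 for Il6ra and 0.52 to 1.00 for Il6st, and in the double KO over the Ezh1 KO over 0.16 to 0.57 and 0.28 to 0.53. The counts at 1.5-fold moved more. At 2-fold, 0 receptor genes were counted in every comparison. With H3K27me3 taken as the highest bin, the genes counted higher were 1 in the Ezh1 KO over WT (Il6ra), 4 in the Ezh2 KO over WT (Il2rb, Il2rg, Il6ra and Il6st), 5 in the double KO over WT (those and Il7r) and 1 in the double KO over the Ezh1 KO (Il2rg). A pseudocount of 10 left 0 and 0 in the Ezh2 KO and double KO over WT. Setting windows of the most expressed genes equal between libraries left 0 in the Ezh2 KO over WT, and so did setting windows of all genes at 1 or more in WT RNA equal, an alternative chosen after seeing the data. Both of these, and median-of-ratios scaling, also ended the Il6ra call in the double KO over WT, at log2 ratios of 0.57, 0.57 and 0.56, which left 2 of 3. Setting marked windows equal gave 1 lower in the Ezh1 KO over WT (Il2rg), 2 higher in the Ezh2 KO over WT (Il7r and Il6st) and 0 in the double KO over WT. In RNA of the Ezh2 KO over WT, Il6ra was the 1 gene counted lower with median-of-ratios scaling and with a pseudocount of 0.01. The median over exons counted 1 higher there (Il21r) and 1 higher in the double KO over WT (Il10ra). A pseudocount of 1 left 0 in the double KO over the Ezh2 KO. The cause of these moves was not tested. Among the H3K27me3 windows with signal, depth limits Il2rg most, with 55 read equivalents in the Ezh1 KO. In RNA it limits Il15ra and Il10ra most, with 15 reads (WT) and 28 reads (Ezh2 KO) at their lowest. Il6ra RNA also rested on few reads, 55 in the Ezh2 KO and 75 in WT, as did Il2rb, with 59 in WT.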
